A study of Homo sapiens with 16 samples.

Results

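The methionine cycle genes examined here were 9 of the 67938 gene identifiers in each count table: GNMT, MAT1A, MAT2A, MAT2B, AHCY, MTR, BHMT, CBS and CTH. They were taken by symbol, and the set was chosen by a measured value, the GNMT level in the cytoplasm of HepG2 cells, which was much higher with siPANAD. All 9 passed the filter on low counts in both cell lines, but in SNU-449 GNMT and BHMT did so mainly through their nuclear libraries. The data were RNA counts from 16 libraries of cytoplasmic or nuclear RNA, 2 biological duplicates for each of 8 groups. The groups were siPANAD and negative control siRNA (NC), in cytoplasm and nucleus, in SNU-449 and in HepG2 cells. HepG2 is a liver tumour line that keeps many traits of hepatocytes. SNU-449 is a hepatoma line with mesenchymal traits. All cells were transfected for 48 h, and siPANAD combined siPANAD-1 with siPANAD-2 against PANAD, the product of C7orf25, so effects of either siRNA alone cannot be told apart. By its title, the study concerns PANAD, NXF1 (a receptor for mRNA export) and the export of CDK6 mRNA, and the fractions allowed level and nucleus to cytoplasm ratio to be set side by side.

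The methionine cycle makes S-adenosylmethionine (SAM), the methyl donor of most cellular methylation reactions, from methionine and ATP. Methionine adenosyltransferases make SAM: MAT1A encodes the subunit typical of the adult liver, MAT2A the subunit of most other cells and of many liver tumours, and MAT2B a regulatory subunit that binds the MAT2A product. GNMT transfers a methyl group from SAM to glycine, giving sarcosine, and is abundant in normal hepatocytes, where it is known to keep SAM in check. AHCY removes the S-adenosylhomocysteine left by methylation. Homocysteine is then either methylated back to methionine by MTR, which uses folate and cobalamin, or by BHMT, which uses betaine, or passed through CBS and CTH towards cysteine.

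C7orf25, the target of the siRNAs, had 0, 0, 1 and 4 counts in the HepG2 siPANAD libraries, against 0, 1, 0 and 2 counts in the HepG2 NC libraries (cytoplasm before nucleus). In SNU-449 it had 0, 0, 3 and 4 counts with siPANAD, against 3, 2, 5 and 7 counts with NC. These counts were too few to check the knockdown, and 61.1% of the exonic bases of C7orf25 also belong to AC010132.3 on the same strand. Depth ran from 16238235 to 30321908 counts per library, highest in HepG2 cytoplasm NC replicate 2, and the next highest library had 19498081. The labels call both lines hepatocellular carcinoma cells. Of 16 hepatocyte markers examined, 4 were above 1 CPM in every SNU-449 library and all 16 in every HepG2 library. In SNU-449 ALB was at 0 to 0.257, HNF4A at 0 to 0.143 and APOA1 at 0.0855 to 0.429 TMM CPM. Of the 12 mesenchymal markers, 10 were above 1 CPM in every SNU-449 library and 4 in every HepG2 library. MALAT1, an RNA held in the nucleus, was at 308 to 463 TMM CPM in SNU-449 nuclei against 2.93 to 4.62 in the cytoplasm, and at 273 to 316 in HepG2 nuclei against 5.41 to 7.15 in the cytoplasm. Levels here are TMM CPM, which are counts scaled to the sequencing depth of each library by the TMM method, effects are log2 fold changes ± standard error (SE), and the threshold was an edgeR quasi-likelihood p under 0.05 after Benjamini-Hochberg adjustment over all genes tested. With 2 libraries a group, these p-values set an effect against the spread between duplicates, estimated over all groups of a fit with information shared across genes. In bulk RNA fewer cells with an RNA and less of it per cell cannot be told apart.

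The promoters of GNMT, MAT1A and CTH are shown because, of the 9 genes, GNMT and MAT1A had the highest and CTH the lowest ratio of siPANAD to NC in the HepG2 nucleus. Each window of 300 bases runs from 250 bases before to 50 bases after the RefSeq gene start, on the gene's own strand, 5′ to 3′, in GRCh38.p14. GNMT lies on the plus strand (chr6:42960504-42960803), MAT1A on the minus strand (chr10:80289609-80289908) and CTH on the plus strand (chr1:70411018-70411317). Capitals mark matches to 7 motifs searched on both strands: the TATA box (TATAAA), the CCAAT box (CCAAT), the GC box (GGGCGG), the E-box of MYC and USF factors (CACGTG), the AP-1 motif (TGANTCA), the amino acid response motif of ATF4 (TGATGNAA) and the forkhead motif (GTAAACA). No 2 of the matches overlapped.
GNMT: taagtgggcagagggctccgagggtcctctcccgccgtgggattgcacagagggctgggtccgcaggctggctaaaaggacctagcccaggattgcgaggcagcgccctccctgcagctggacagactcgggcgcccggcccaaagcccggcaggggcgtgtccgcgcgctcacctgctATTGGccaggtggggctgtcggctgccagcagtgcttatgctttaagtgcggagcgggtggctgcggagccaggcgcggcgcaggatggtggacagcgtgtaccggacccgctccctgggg
MAT1A: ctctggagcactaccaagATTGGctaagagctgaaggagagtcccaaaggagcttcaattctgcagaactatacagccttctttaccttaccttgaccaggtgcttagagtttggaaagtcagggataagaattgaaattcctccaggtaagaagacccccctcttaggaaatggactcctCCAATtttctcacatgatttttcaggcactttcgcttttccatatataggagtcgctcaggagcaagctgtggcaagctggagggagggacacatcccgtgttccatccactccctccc
CTH: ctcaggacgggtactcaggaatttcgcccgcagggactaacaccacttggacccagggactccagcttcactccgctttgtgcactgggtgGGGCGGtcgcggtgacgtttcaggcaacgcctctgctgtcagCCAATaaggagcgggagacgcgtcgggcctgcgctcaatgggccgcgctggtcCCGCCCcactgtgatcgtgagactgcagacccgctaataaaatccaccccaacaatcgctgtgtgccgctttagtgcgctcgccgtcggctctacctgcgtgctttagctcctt
All 3 windows held CCAAT, a sequence bound by the factor NF-Y, and so did 34.6% of all 35116 windows of this length. The match began 71 bases before the start of GNMT on the opposite strand, 69 bases before the start of MAT1A on its own strand and 117 bases before the start of CTH on its own strand. MAT1A had a further match on the opposite strand, 232 bases before its start. GGGCGG, the GC box, was found in CTH only of the 3, on either strand, against 45.0% of all windows. The GNMT window was 69.3% G and C, the CTH window 61.7% and the MAT1A window 48.0%. None of the other 5 motifs matched in these windows, and they were present in 3.42% to 11.5% of all windows.

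GNMT was the member with the widest difference in HepG2 (chromosome 6, 42960758 to 42963880, plus strand, GRCh38, GENCODE 29). In the HepG2 cytoplasm it was at 34.4 and 36.1 TMM CPM in siPANAD libraries (430 and 460 counts), against 2.17 and 1.82 TMM CPM in NC libraries (30 and 45 counts). The fitted difference was 4.16 ± 0.19 on the log2 scale, or 17.9-fold, which is a description, since this value chose the set. The nucleus, not used by the choice, gave 9.06 and 9.16 TMM CPM with siPANAD, against 0.738 and 0.517 TMM CPM with NC. All siPANAD libraries lay above all NC libraries in both fractions. In the nucleus GNMT rose by 3.85 ± 0.24 on the log2 scale, or 14.4-fold (edgeR adjusted p = 1.87e-12). The labels do not say whether both fractions came from the same cultures, so the nuclear test may share cultures with the cytoplasmic values.

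In SNU-449 GNMT was low in every library. It had 7 and 10 counts in the siPANAD cytoplasm, against 9 and 12 counts in the NC cytoplasm. In the SNU-449 nucleus it had 29 and 22 counts with siPANAD, against 25 and 33 counts with NC, which is 1.24 and 0.933 TMM CPM against 1.08 and 1.40 TMM CPM. The groups overlapped in both fractions, and the log2 fold changes of -0.26 ± 0.49 in the cytoplasm and -0.19 ± 0.32 in the nucleus did not pass the threshold (edgeR adjusted p = 0.723 and 0.656). The nuclear effect in SNU-449 minus that in HepG2 was -4.06 ± 0.40 (edgeR adjusted p = 7.73e-11). The same difference in the cytoplasm was -4.46 ± 0.53 and was not tested. With NC alone, GNMT in the cytoplasm was 2.61-fold lower in SNU-449 than in HepG2 (log2 difference -1.38), a value given without a test because the HepG2 NC cytoplasm libraries entered the choice of the set. In the NC nuclei it was higher in SNU-449, with a log2 difference of 0.99 (edgeR adjusted p = 0.00752), a call lost without HepG2 nucleus NC replicate 2 (0.76) or SNU-449 nucleus NC replicate 2 (0.81). GNMT shares 11 exonic bases (1.03%) with PEX6, a peroxisome biogenesis gene on the opposite strand that also rose in the HepG2 nucleus, by 1.13 ± 0.14 (edgeR adjusted p = 5.01e-07). PEX6 rose in the SNU-449 nucleus as well, by 0.82 ± 0.10 (edgeR adjusted p = 1.08e-08), where GNMT did not pass the threshold.

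**Figure D1:**
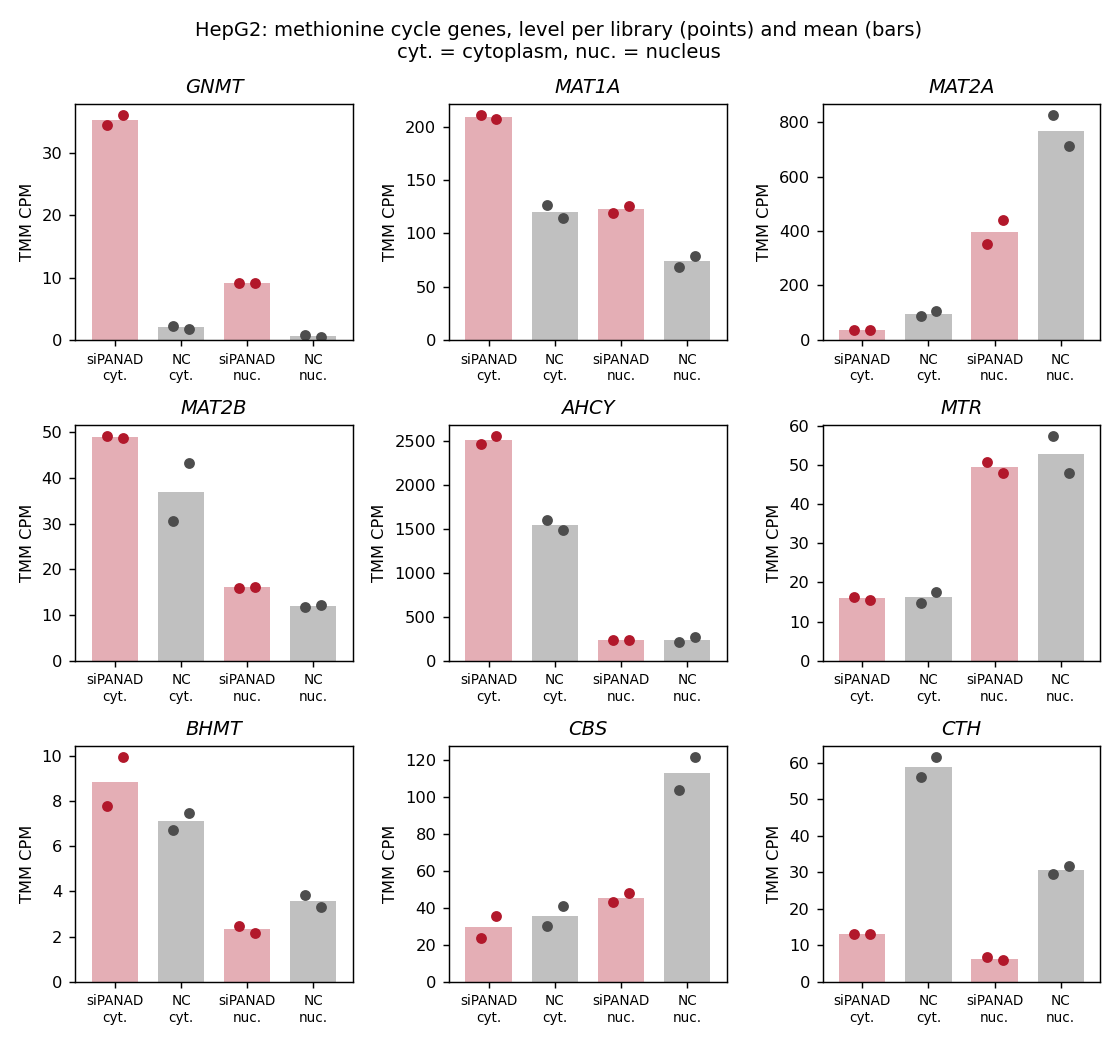
Level of the 9 methionine cycle genes in HepG2, in TMM CPM on linear axes from 0, for siPANAD (red) and NC (grey) in cytoplasm and nucleus. Points are the 2 libraries and bars their mean. GNMT was at 34.4 and 36.1 with siPANAD against 2.17 and 1.82 with NC in the cytoplasm, and CTH at 12.9 and 13.1 against 56.0 and 61.6.

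Of the SAM-making subunits, MAT1A was higher and MAT2A lower with siPANAD in both HepG2 fractions. MAT1A was at 210.9 and 206.7 TMM CPM in the siPANAD cytoplasm, against 126 and 114 TMM CPM in the NC cytoplasm, a log2 difference of 0.80 ± 0.13 given as a description. In the HepG2 nucleus it was at 119 and 126 TMM CPM with siPANAD, against 68.4 and 78.7 TMM CPM with NC. The groups did not overlap, and MAT1A rose by 0.73 ± 0.13 in the nucleus (edgeR adjusted p = 3.94e-05). MAT2A was at 38.1 and 36.5 TMM CPM in the siPANAD cytoplasm, against 87.3 and 105.9 TMM CPM in the NC cytoplasm, a described log2 difference of -1.38 ± 0.15. In the nucleus it stood higher than in the cytoplasm, relative to the typical gene. Nuclear MAT2A was at 352 and 440.5 TMM CPM with siPANAD, against 826 and 710.3 TMM CPM with NC. MAT2A fell by 0.96 ± 0.14 on the log2 scale there (edgeR adjusted p = 5.02e-06). MAT2A shares 558 exonic bases (12.4%) with GGCX on the opposite strand, and GGCX had a nuclear log2 fold change of -0.12 ± 0.12 that did not pass (edgeR adjusted p = 0.443).

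Per kb of exonic sequence, MAT1A made up 87.1% and 87.3% of the sum of MAT1A and MAT2A in the HepG2 siPANAD cytoplasm, against 63.8% and 56.7% in the NC cytoplasm. In HepG2 nuclei the share was 29.1% and 25.8% with siPANAD, against 9.14% and 11.9% with NC. The libraries of siPANAD and NC did not overlap in either fraction. With 2 against 2 libraries an exact permutation test cannot give a two-sided p below 0.333, so no test was made of the share. In SNU-449 MAT1A held 4.34% and 5.70% of the sum in the siPANAD cytoplasm, against 3.67% and 6.19% in the NC cytoplasm. The nuclear shares there were 0.330% and 0.390% with siPANAD, against 0.440% and 0.470% with NC.

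SNU-449 had little MAT1A, and MAT2A moved the other way in its nucleus. MAT1A was at 3.17 and 4.01 TMM CPM in the siPANAD cytoplasm, against 2.64 and 4.25 TMM CPM in the NC cytoplasm, with overlapping groups (log2 fold change 0.06 ± 0.26, edgeR adjusted p = 0.893). Nuclear MAT1A was at 1.07 and 1.27 TMM CPM with siPANAD, against 0.861 and 1.11 TMM CPM with NC, also overlapping. With NC, MAT1A was 35.1-fold lower in the SNU-449 than in the HepG2 cytoplasm (edgeR adjusted p = 6.99e-31). MAT2A was at 392.0 and 395 TMM CPM in the SNU-449 siPANAD nucleus, against 237 and 285 TMM CPM in the NC nucleus, and rose by 0.59 ± 0.09 (edgeR adjusted p = 2.17e-06). Its SNU-449 cytoplasm stood at 85.1 and 80.5 TMM CPM with siPANAD, against 84.3 and 78.3 TMM CPM with NC (0.03 ± 0.10, edgeR adjusted p = 0.871). Both fractions of MAT2A differed between the lines in response, with an SNU-449 minus HepG2 effect of 1.53 ± 0.17 in the nucleus (edgeR adjusted p = 2.68e-09) and 1.36 ± 0.18 in the cytoplasm (edgeR adjusted p = 2.05e-07). Here and for MAT1A below, the cytoplasmic difference includes the HepG2 contrast that chose the set. GGCX, on the opposite strand of MAT2A, also rose in the SNU-449 nucleus, by 0.38 ± 0.10 (edgeR adjusted p = 0.00287). For MAT1A the difference between the lines passed in the cytoplasm, at -0.78 ± 0.26 (edgeR adjusted p = 0.0272), and did not pass in the nucleus, at -0.50 ± 0.32 (edgeR adjusted p = 0.309). The cytoplasmic call was lost without SNU-449 cytoplasm NC replicate 2 (-0.36) or siPANAD replicate 1 (-0.61), and without HepG2 cytoplasm NC replicate 2 (-0.69) or siPANAD replicate 1 (-0.76), and with no filter on low counts (-0.705).

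MAT2B differed less. It was at 49.3 and 48.7 TMM CPM in the HepG2 siPANAD cytoplasm, against 30.6 and 43.4 TMM CPM in the NC cytoplasm, a described log2 difference of 0.40 ± 0.14 that was 0.17 without NC replicate 1 and 0.68 without NC replicate 2. In HepG2 nuclei it was at 15.96 and 16.22 TMM CPM with siPANAD, against 11.8 and 12.3 TMM CPM with NC, and rose by 0.42 ± 0.15 (edgeR adjusted p = 0.03). That call was lost without any 1 of the 4 nuclear libraries, with values of 0.37 (NC replicate 1), 0.43 (NC replicate 2), 0.43 (siPANAD replicate 1) and 0.39 (siPANAD replicate 2), and with DESeq2 (0.41). In the SNU-449 cytoplasm MAT2B was at 29.6 and 31.5 TMM CPM with siPANAD, against 27.9 and 20.3 TMM CPM with NC, and rose by 0.34 ± 0.13 (edgeR adjusted p = 0.0357). This call ended without cytoplasm NC replicate 2 (0.16) or siPANAD replicate 2 (0.30), without either nuclear siPANAD library (0.34), and with DESeq2 (0.35). The SNU-449 nucleus showed 22.9 and 24.2 TMM CPM with siPANAD, against 21.9 and 23.8 TMM CPM with NC, with overlapping groups.

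AHCY, which clears S-adenosylhomocysteine, was the most abundant member per kb in both cytoplasms. It was at 2471 and 2560 TMM CPM in the HepG2 siPANAD cytoplasm, against 1598 and 1494 TMM CPM in the NC cytoplasm, a described log2 difference of 0.70 ± 0.14. The SNU-449 cytoplasm, which the choice of genes did not use, had 2965 and 3026 TMM CPM with siPANAD, against 1901 and 1877 TMM CPM with NC. AHCY rose there by 0.67 ± 0.09, or 1.59-fold (edgeR adjusted p = 2.45e-07), and the SNU-449 minus HepG2 cytoplasmic effect was -0.08 ± 0.18 (edgeR adjusted p = 0.899). That difference includes the HepG2 contrast that chose the set. In HepG2 nuclei AHCY was at 239 and 232 TMM CPM with siPANAD, against 209 and 269 TMM CPM with NC, with overlapping groups (-0.02 ± 0.14, edgeR adjusted p = 0.924). In SNU-449 nuclei it was at 223 and 189 TMM CPM with siPANAD, against 169 and 173 TMM CPM with NC, and rose by 0.27 ± 0.09 (edgeR adjusted p = 0.0181). The nuclear call was lost without siPANAD replicate 1 (0.14) or NC replicate 1 (0.24), and with no filter on low counts (0.23). MTR, the folate- and cobalamin-dependent methionine synthase, did not pass the threshold in any of the 3 tested siPANAD contrasts. Its level was 11.9 and 12.8 TMM CPM with siPANAD against 13.1 and 10.1 TMM CPM with NC in the SNU-449 cytoplasm, and 16.2 and 15.6 against 14.8 and 17.6 TMM CPM in the HepG2 cytoplasm. Nuclear MTR was at 38.1 and 39.3 TMM CPM with siPANAD against 39.3 and 37.7 with NC in SNU-449, and at 50.8 and 48.1 against 57.4 and 48.1 in HepG2. The fitted log2 fold changes of MTR lay between -0.09 and 0.09 over the 4 contrasts, with SE of 0.11 to 0.15.

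The remaining 3 genes use homocysteine or its product. CTH, which releases cysteine from cystathionine, was the member with the lowest siPANAD to NC ratio in HepG2. It was at 12.9 and 13.1 TMM CPM in the HepG2 siPANAD cytoplasm, against 56.0 and 61.6 TMM CPM in the NC cytoplasm, a described log2 difference of -2.18 ± 0.14. In the nucleus it was at 6.66 and 5.93 TMM CPM with siPANAD, against 29.4 and 31.6 TMM CPM with NC, and fell by 2.27 ± 0.14 on the log2 scale (4.84-fold lower, edgeR adjusted p = 2.8e-12). SNU-449 held far less CTH, 38.4-fold less in the NC cytoplasm than HepG2 (edgeR adjusted p = 8.86e-29). There it had 1.55 and 1.43 TMM CPM in the siPANAD cytoplasm, against 1.69 and 1.42 TMM CPM in the NC cytoplasm (20 to 23 counts a library). SNU-449 nuclei had 2.39 and 1.70 TMM CPM with siPANAD, against 2.496 and 2.98 TMM CPM with NC, a log2 fold change of -0.42 ± 0.24 that did not pass (edgeR adjusted p = 0.144). The SNU-449 minus HepG2 effect on CTH was 1.84 ± 0.26 in the nucleus (edgeR adjusted p = 5.41e-07) and 2.08 ± 0.35 in the cytoplasm (edgeR adjusted p = 1.55e-05). The cytoplasmic difference includes the HepG2 contrast that chose the set, and the SNU-449 cytoplasm itself had a CTH log2 fold change of -0.06 ± 0.34.

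CBS, which joins homocysteine and serine, fell in the HepG2 nucleus and overlapped between siRNAs in the HepG2 cytoplasm. Nuclear CBS was at 42.9 and 47.8 TMM CPM with siPANAD, against 103.5 and 122 TMM CPM with NC, a fall of 1.31 ± 0.17 on the log2 scale (2.48-fold lower, edgeR adjusted p = 3.8e-06). Cytoplasmic CBS was at 23.8 and 35.6 TMM CPM with siPANAD, against 30.1 and 40.9 TMM CPM with NC (-0.27 ± 0.18, described only). The tables hold a separate row for CBSL, a near-identical copy of CBS, and reads may be split between both. With CBS and CBSL summed the nuclear value was -1.29 (edgeR adjusted p = 2.92e-06). In SNU-449 CBS was at 21.3 and 28.5 TMM CPM in the siPANAD cytoplasm against 21.3 and 28.2 in the NC cytoplasm, and at 9.57 and 9.88 against 7.06 and 11.2 TMM CPM in the nucleus. Neither SNU-449 contrast passed (0.01 ± 0.19 and 0.09 ± 0.21, edgeR adjusted p = 0.996 and 0.75). The nuclear effect in SNU-449 minus HepG2 was 1.39 ± 0.38 (edgeR adjusted p = 0.0269). This call was lost without SNU-449 nucleus NC replicate 1 (1.10), siPANAD replicate 1 (1.41) or siPANAD replicate 2 (1.36), and without HepG2 nucleus NC replicate 2 (1.26), siPANAD replicate 1 (1.31) or siPANAD replicate 2 (1.46).

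BHMT, the betaine-dependent methyltransferase, was at 7.76 and 9.96 TMM CPM in the HepG2 siPANAD cytoplasm, against 6.72 and 7.47 TMM CPM in the NC cytoplasm (0.31 ± 0.20, described only). In HepG2 nuclei it was at 2.48 and 2.16 TMM CPM with siPANAD, against 3.84 and 3.29 TMM CPM with NC, and fell by 0.62 ± 0.23 (edgeR adjusted p = 0.0284). That call was lost without nuclear NC replicate 1 (-0.52), siPANAD replicate 1 (-0.72) or siPANAD replicate 2 (-0.54), with upper quartile scaling (-0.53), with DESeq2 (-0.63) and with no filter (-0.59). In the SNU-449 cytoplasm BHMT had 0 and 4 counts with siPANAD, against 5 and 3 counts with NC, and a count of 0 allows up to 3 counts, so no fold is given. SNU-449 nuclei had 26 and 17 counts with siPANAD, against 32 and 54 counts with NC, and BHMT fell there by 1.002 ± 0.351 (edgeR adjusted p = 0.0192). This call was lost without nuclear NC replicate 2 (-0.60) or siPANAD replicate 2 (-0.73), and with DESeq2 (-0.998). BHMT shares 239 exonic bases (6.79%) with DMGDH on the opposite strand. BHMT2, a paralogue that uses S-methylmethionine and is no member of the set, fell in both cytoplasms, by 1.20 ± 0.11 in SNU-449 (edgeR adjusted p = 1.16e-11) and by 1.04 ± 0.14 in HepG2 (edgeR adjusted p = 8.25e-07). Its nuclear log2 fold changes of -0.10 ± 0.10 and -0.09 ± 0.13 did not pass (edgeR adjusted p = 0.422 and 0.574).

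**Figure D2:**
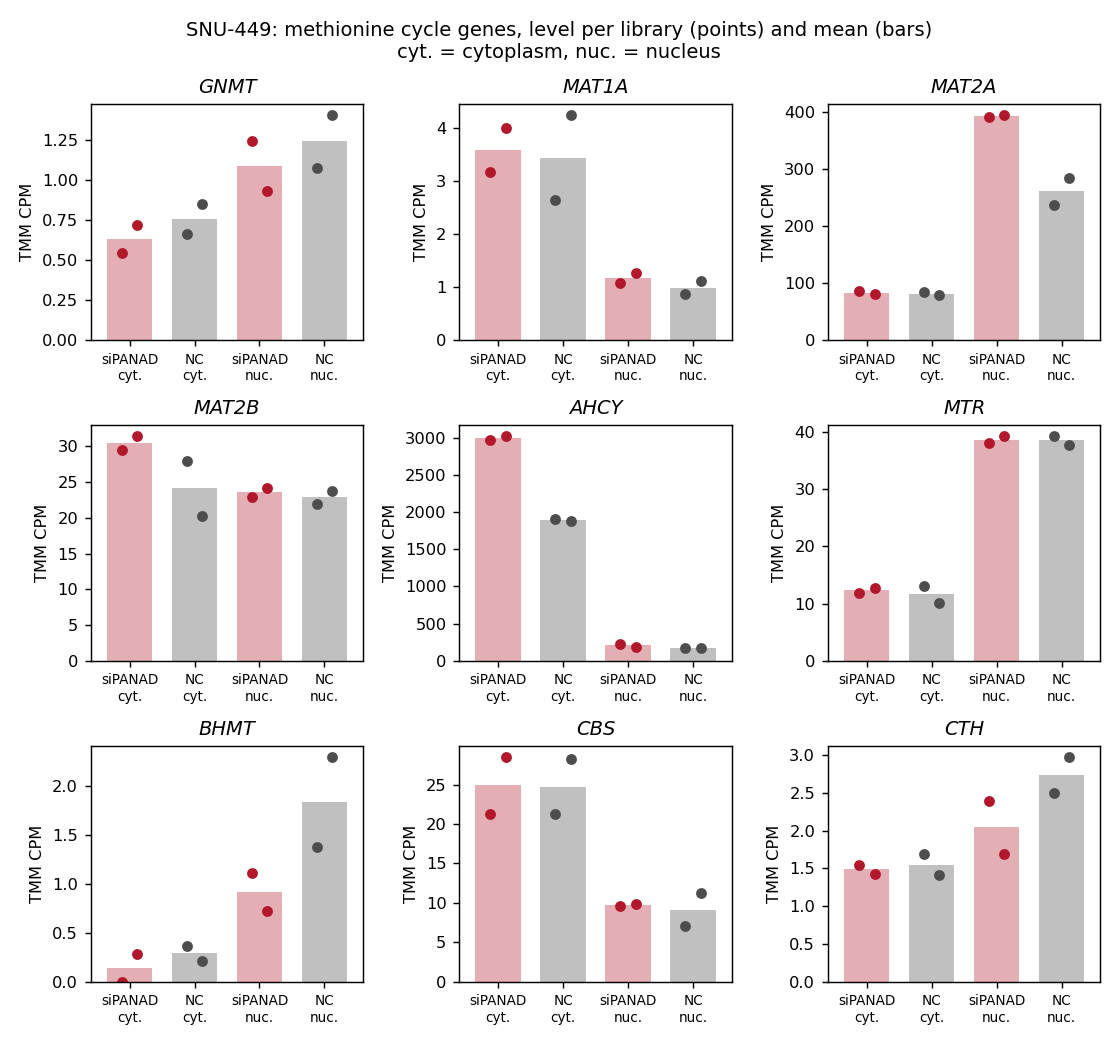
Level of the 9 methionine cycle genes in SNU-449, in TMM CPM on linear axes from 0, for siPANAD (red) and NC (grey) in cytoplasm and nucleus. Points are the 2 libraries and bars their mean. AHCY in the cytoplasm was at 2965 and 3026 with siPANAD against 1901 and 1877 with NC, and GNMT, BHMT and CTH stayed below 3 in every library.

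Counted together, 7 of the 9 genes passed the threshold in the HepG2 nucleus, 3 higher (GNMT, MAT1A, MAT2B) and 4 lower (MAT2A, BHMT, CBS, CTH). Of all 17499 genes tested there 45.6% passed, 22.0% higher and 23.6% lower. In 7 of the 9 genes the nuclear libraries of siPANAD and NC did not overlap, against 74.0% of all genes. In the HepG2 cytoplasm, which chose the set, the members were not tested. There 7 of the 9 did not overlap, given as a description, beside 71.7% of all genes. In the SNU-449 cytoplasm 2 of 9 passed, MAT2B and AHCY, both higher, where 39.7% of 17895 genes passed, 19.6% higher and 20.1% lower. The same 2 members were without overlap, against 66.2% of all genes. In the SNU-449 nucleus 3 of 9 passed, MAT2A and AHCY higher and BHMT lower, where 46.0% of all genes passed, 22.1% higher and 23.9% lower. There 4 of 9 members did not overlap, against 73.0% of all genes. The median log2 fold change of the members was -0.09 in the HepG2 nucleus, 0.03 in the SNU-449 cytoplasm and 0.05 in the SNU-449 nucleus, beside -0.03, 0.04 and -0.01 for all genes tested. The test of the difference between the lines was past the threshold for 4 of 9 members in the nucleus (GNMT, MAT2A, CBS, CTH), where 20.9% of 20459 genes were. In the cytoplasm it was past the threshold for 3 of the 8 members tested (MAT1A, MAT2A, CTH), where 18.2% of all genes were. This cytoplasmic difference includes the HepG2 contrast that chose the set.

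**Figure D3:**
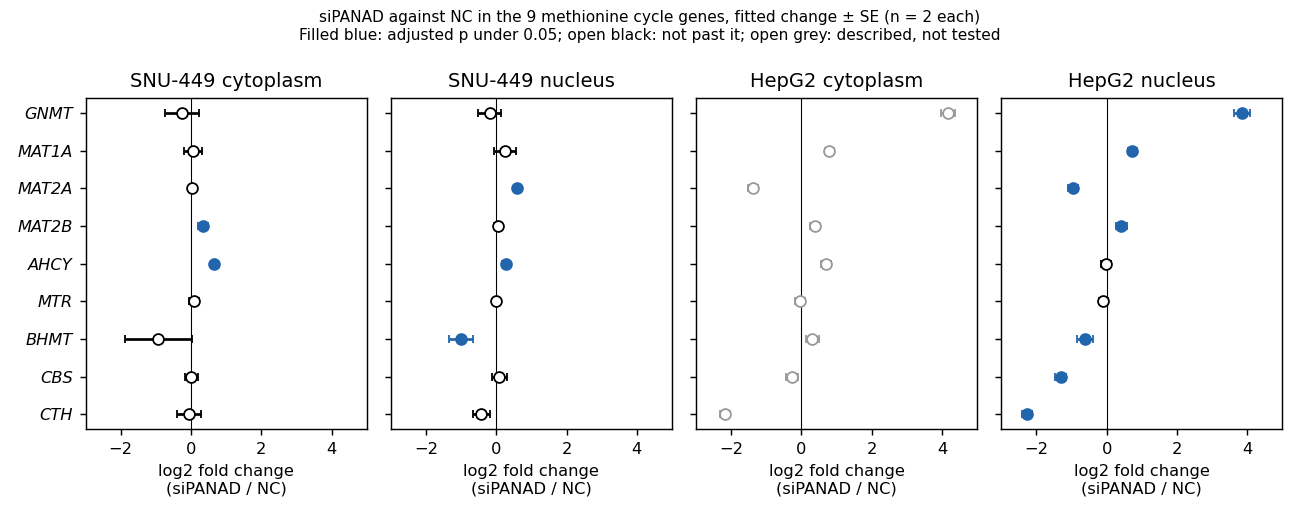
Fitted log2 fold change of siPANAD over NC for the 9 genes in the 4 combinations of line and fraction, with bars of 1 SE and 2 libraries a group. Filled points passed the edgeR threshold, open black points did not, and open grey points in the HepG2 cytoplasm are described without a test. GNMT stood at -0.26 and -0.19 in SNU-449 and at 4.16 and 3.85 in HepG2, and the BHMT value in the SNU-449 cytoplasm rests on 0 to 5 counts a library.

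Per kb, the order of the members in the HepG2 siPANAD cytoplasm began with AHCY at 646 ± 16.1, MAT1A at 56.6 ± 0.806 and GNMT at 32.9 ± 1.10 TMM CPM per kb (SD, n = 2). Behind them stood MAT2B at 9.504, MAT2A at 8.31, CTH at 5.39, CBS at 4.38, BHMT at 2.52 and MTR at 1.40, and no neighbours in this order had overlapping libraries. In the HepG2 NC cytoplasm the order was AHCY at 397 ± 19.0, MAT1A at 32.6 ± 2.35, CTH at 24.4 ± 1.63 and MAT2A at 21.5 ± 2.92, with overlapping libraries for CTH and MAT2A. GNMT was the eighth there, at 1.86 ± 0.23, overlapping with BHMT at 2.02 ± 0.15. In the HepG2 nucleus MAT2A led, at 88.3 ± 13.9 with siPANAD against 171 ± 18.3 with NC, ahead of AHCY at 60.6 ± 1.33 against 61.4 ± 10.8. In SNU-449 the cytoplasmic order began with AHCY, at 769 ± 11.2 with siPANAD against 485 ± 4.31 with NC, then MAT2A, at 18.5 ± 0.721 against 18.1 ± 0.941. SNU-449 MAT1A, GNMT and CTH lay between 0.586 and 0.972 TMM CPM per kb in the cytoplasm with either siRNA. Among them MAT1A and GNMT overlapped, as did GNMT and CTH, in the NC libraries.

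The nucleus to cytoplasm ratio, relative to the typical gene, had the same sign in both lines with NC for MAT2A and MTR, on the nuclear side, and for AHCY and MAT1A, on the cytoplasmic side. MAT2A, whose transcript is known for an intron retained in the nucleus, had a log2 ratio of 1.68 ± 0.10 in SNU-449 (edgeR adjusted p = 5.22e-18) and 2.99 ± 0.15 in HepG2 (edgeR adjusted p = 5.93e-15). MTR was higher in the nucleus by 1.73 ± 0.13 in SNU-449 (edgeR adjusted p = 8.87e-15) and by 1.69 ± 0.14 in HepG2 (edgeR adjusted p = 3.44e-11). AHCY had ratios of -3.46 ± 0.10 in SNU-449 (edgeR adjusted p = 1.75e-26) and -2.69 ± 0.15 in HepG2 (edgeR adjusted p = 3.71e-14). MAT1A had ratios of -1.80 ± 0.29 in SNU-449 (edgeR adjusted p = 7.9e-07) and -0.71 ± 0.13 in HepG2 (edgeR adjusted p = 1.88e-05). MAT2B had a ratio of -0.08 ± 0.13 that did not pass in SNU-449 (edgeR adjusted p = 0.595), but did without cytoplasm NC replicate 2 (-0.32), and one of -1.63 ± 0.15 in HepG2 (edgeR adjusted p = 3.94e-10). CBS had opposite signs, with a log2 ratio of -1.44 ± 0.20 in SNU-449 (edgeR adjusted p = 5.04e-06) and 1.65 ± 0.17 in HepG2 (edgeR adjusted p = 4.83e-08). CTH also had opposite signs, with 0.82 ± 0.28 in SNU-449 (edgeR adjusted p = 0.00783) and -0.95 ± 0.13 in HepG2 (edgeR adjusted p = 2.47e-07). The CTH call in SNU-449 was lost without cytoplasm NC replicate 2 (0.67) or nucleus NC replicate 2 (0.68), and with DESeq2 (0.80). The differences of these ratios between the lines were not tested. BHMT had a ratio of -1.001 ± 0.205 in HepG2 (edgeR adjusted p = 9.66e-05). In SNU-449 BHMT had 32 and 54 counts in the NC nuclei, against 5 and 3 counts in the NC cytoplasm. GNMT there had a fitted ratio of 0.71 ± 0.39. Both are given without a test, since these genes were kept by the filter through their nuclear libraries. GNMT in HepG2, at -1.64 ± 0.30, was not tested either, since its cytoplasmic level chose the set. Of the members tested, 6 of 7 in SNU-449 and 8 of 8 in HepG2 passed in this contrast, beside 79.8% and 77.1% of all genes.

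The shift of that ratio with siPANAD, the nuclear minus the cytoplasmic log2 fold change, sets the effect in one fraction against that in the other. In SNU-449 2 of 9 members passed, where 20.2% of all genes did, 9.69% higher and 10.5% lower. MAT2A shifted towards the nucleus by 0.57 ± 0.14 (edgeR adjusted p = 0.00225) and AHCY away from it, by -0.40 ± 0.13 (edgeR adjusted p = 0.0272). The AHCY call was lost without SNU-449 cytoplasm siPANAD replicate 1 (-0.43) or 2 (-0.38), cytoplasm NC replicate 1 (-0.39) or 2 (-0.41), or nucleus siPANAD replicate 2 (-0.28). In HepG2 3 of the 8 members tested passed, where 9.89% of all genes did, 4.91% higher and 4.98% lower. Each of the 3 had a lower ratio with siPANAD: CBS by -1.04 ± 0.24 (edgeR adjusted p = 0.00995), AHCY by -0.72 ± 0.20 (edgeR adjusted p = 0.0237) and BHMT by -0.93 ± 0.30 (edgeR adjusted p = 0.0482). The HepG2 shift includes the cytoplasmic values that chose the set. The CBS call was lost without cytoplasm siPANAD replicate 2 (-0.65) or nucleus NC replicate 2 (-0.93). The AHCY call was lost without cytoplasm siPANAD replicate 1 (-0.68) or 2 (-0.63), nucleus siPANAD replicate 1 (-0.74) or 2 (-0.71), or nucleus NC replicate 2 (-0.54). The BHMT call was lost without any HepG2 library but cytoplasm NC replicate 2, with values from -1.04 to -0.67, and with DESeq2 (-0.932), no filter (-0.815) and the replicate block (-0.929). MAT2A in HepG2, at 0.42 ± 0.21, did not pass (edgeR adjusted p = 0.21), and it passed without cytoplasm NC replicate 1 (0.54). GNMT had a described shift of -0.31 ± 0.37 in HepG2, and MAT1A, MAT2B, CTH and MTR lay between -0.10 and 0.02 there (edgeR adjusted p of 0.815 to 0.971).

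**Figure D4:**
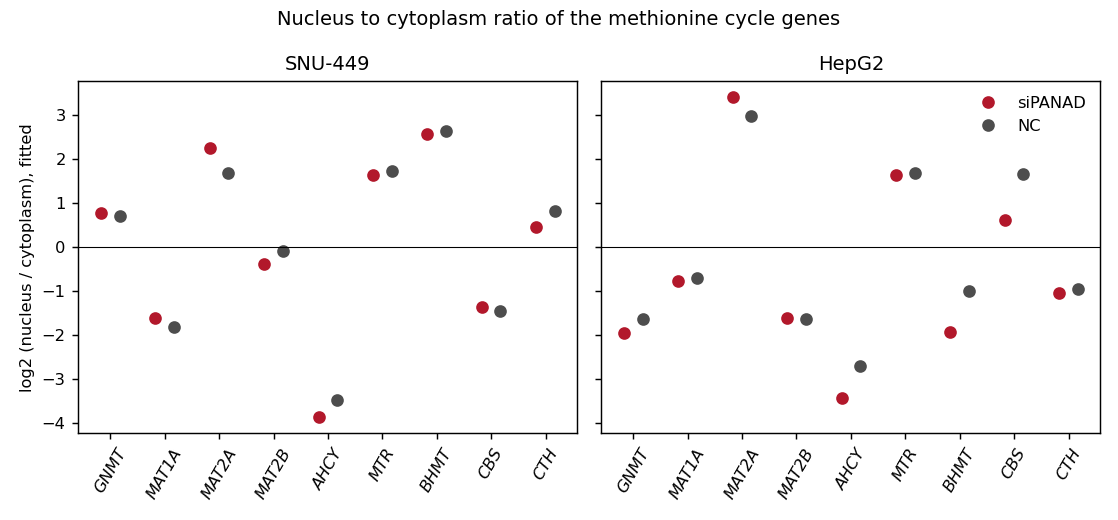
Fitted log2 ratio of nucleus to cytoplasm for the 9 genes with siPANAD (red) and NC (grey), SNU-449 left and HepG2 right, without error bars. MAT2A lay at 2.25 with siPANAD against 1.68 with NC in SNU-449, and at 3.41 against 2.99 in HepG2. CBS lay at 0.61 against 1.65 in HepG2.

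The genes whose log2 level was most like that of GNMT over the 16 libraries, among 20459 genes, were ACOT1 (Pearson r = 0.967), CST5 (0.967), PPP1R14D (0.965), LINC02520 (0.958) and MRAP (0.957). These coefficients describe 16 libraries that share cell line, fraction and siRNA, and are given without a test. They include the HepG2 cytoplasm libraries that chose the set, so the ranking favours genes that are high in the same group. ACOT1, an acyl-CoA thioesterase that may share reads with its close copy ACOT2, was at 40.3 ± 2.54 TMM CPM in the HepG2 siPANAD cytoplasm against 11.97 ± 2.12 in the NC cytoplasm, and at 5.51 ± 0.77 against 6.60 ± 1.07 in the SNU-449 cytoplasm (SD, n = 2, scaled over 16 libraries). PPP1R14D was at 8.34 ± 0.39 against 0.254 ± 0.048 TMM CPM in the HepG2 cytoplasm. CST5, LINC02520 and MRAP were low, at 0.838, 1.71 and 2.47 TMM CPM in the HepG2 siPANAD cytoplasm, against 0.0411, 0.0982 and 0.155 TMM CPM in the NC cytoplasm. CST5, LINC02520, MRAP and PPP1R14D were kept by the filter on low counts only through HepG2 siPANAD libraries, so their likeness to GNMT is a description. Among the other 8 members r with GNMT ran from -0.37 for MAT2A to 0.65 for MAT1A, with BHMT at 0.62, MAT2B at 0.44 and CTH at 0.30.

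Around the cycle, 7 lists of 82 genes were examined, and they were chosen with earlier results of these data known. Their counts are to be read against all genes tested, of which 22.0% rose and 23.6% fell in the HepG2 nucleus, 23.7% and 24.2% in the HepG2 cytoplasm, 22.1% and 23.9% in the SNU-449 nucleus, and 19.6% and 20.1% in the SNU-449 cytoplasm. The median log2 fold change of all genes lay between -0.03 and 0.04 in these contrasts. The list around SAM supply and the clearance of its products held 6 genes: AHCYL1, AHCYL2, SLC25A26, METTL16, ADK and ADA. Of these, 4 fell and none rose past the threshold in HepG2 nuclei, where 23.6% of all genes fell. The median log2 fold change of the list there was -0.38. Adenosine deaminase (ADA), which removes the adenosine released by AHCY, fell by 1.35 ± 0.16 there (edgeR adjusted p = 1.85e-07), at 5.73 and 6.16 TMM CPM with siPANAD against 14.3 and 15.99 with NC. METTL16, the methyltransferase that acts on MAT2A RNA, fell by 0.48 ± 0.17 (edgeR adjusted p = 0.0215). The METTL16 call was lost without HepG2 nucleus NC replicate 1 (-0.49), NC replicate 2 (-0.51) or siPANAD replicate 2 (-0.29), with upper quartile scaling (-0.40) and with DESeq2 (-0.49). Leaving out nucleus siPANAD replicate 2, nucleus NC replicate 1 or either cytoplasm siPANAD library gave 1 to 2 genes on this list in place of 4. In the SNU-449 nucleus 2 of these 6 rose and 2 fell, a sum that was 0 without nucleus siPANAD replicate 2, 1 without NC replicate 1 and 2 without siPANAD replicate 1. In the cytoplasms 1 rose and none fell in SNU-449, and 1 rose and 2 fell in HepG2, a sum of 3 that was 1 without HepG2 cytoplasm siPANAD replicate 2.

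Of 10 small-molecule methyltransferases, which use SAM as GNMT does, 5 were tested in HepG2 and 6 in SNU-449. In the HepG2 nucleus 2 of 5 rose and none fell, against 22.0% and 23.6% of all genes. GAMT, which makes creatine, was at 125 and 137 TMM CPM with siPANAD there, against 56.3 and 74.7 TMM CPM with NC, and rose by 0.9997 ± 0.164 (edgeR adjusted p = 3.1e-05). HNMT, which inactivates histamine, rose in the SNU-449 cytoplasm by 1.14 ± 0.15 (edgeR adjusted p = 5.46e-08), at 22.8 and 25.6 TMM CPM with siPANAD against 11.9 and 9.99 with NC. It also rose in HepG2, by 0.88 ± 0.12 in the cytoplasm (edgeR adjusted p = 1.68e-06) and by 0.46 ± 0.13 in the nucleus (edgeR adjusted p = 0.00416). The HepG2 nuclear call was lost in 1 of 15 alternative runs. NNMT, which methylates nicotinamide, fell in the SNU-449 nucleus by 1.33 ± 0.18 (edgeR adjusted p = 0.000143), at 36.6 and 27.6 TMM CPM with siPANAD against 95.2 and 66.0 with NC. There 3 of 6 fell and none rose, in the SNU-449 cytoplasm 2 rose and 1 fell, and in the HepG2 cytoplasm 3 of 5 rose.

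Of the 12 betaine, glycine and sarcosine genes, 5 rose in the HepG2 nucleus and 1 fell, and their median log2 fold change was 0.46. That is 6 of 12 past the threshold, near the 45.6% of all genes. SARDH, which oxidises the sarcosine that GNMT makes, was at 112 and 124 TMM CPM with siPANAD there, against 58.3 and 70.6 TMM CPM with NC, and rose by 0.87 ± 0.13 (edgeR adjusted p = 8.63e-06). AGXT, which makes glycine from glyoxylate, was at 384 and 426 TMM CPM with siPANAD, against 144 and 192 TMM CPM with NC, and rose by 1.27 ± 0.14 (edgeR adjusted p = 5.68e-08). In the HepG2 cytoplasm 5 rose and 2 fell. In SNU-449 8 of the 12 were tested, and 2 rose and 3 fell in the cytoplasm, a sum of 5 that was 3 with DESeq2, 3 without cytoplasm NC replicate 2 and 2 without siPANAD replicate 2. In the SNU-449 nucleus none rose and 2 fell, a count of 1 without siPANAD replicate 1.

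Of the 19 folate cycle genes, 18 were tested in HepG2 and 17 in SNU-449, and they moved both ways. The counts were 7 higher and 7 lower in the HepG2 nucleus, 6 and 5 in the HepG2 cytoplasm, 3 and 3 in the SNU-449 nucleus, and 3 and 5 in the SNU-449 cytoplasm. The last sum of 8 was 5 without SNU-449 cytoplasm NC replicate 2. ALDH1L2, the mitochondrial formyl-folate dehydrogenase, fell in HepG2 nuclei by 1.98 ± 0.15 (edgeR adjusted p = 6.62e-11), at 16.5 and 15.2 TMM CPM with siPANAD against 72.2 and 52.7 with NC.

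Of the 10 cobalamin genes, 4 rose and 1 fell in the HepG2 nucleus, a sum of 5 near the 45.6% of all genes, and it was 3 without nucleus NC replicate 1. In the HepG2 cytoplasm 3 rose and 2 fell, where 47.9% of all genes passed, and the sum of 5 was 3 without cytoplasm siPANAD replicate 1. MMAB, which makes adenosylcobalamin, rose in the HepG2 nucleus by 1.35 ± 0.14 (edgeR adjusted p = 3.33e-08), at 33.1 and 32.8 TMM CPM with siPANAD against 11.5 and 14.3 with NC. In the SNU-449 nucleus and cytoplasm alike 2 rose and 1 fell, and each sum of 3 was 1 without nucleus siPANAD replicate 2, or without either cytoplasm NC library. Of the 10 cysteine and glutathione genes, which follow CTH, 9 were tested in HepG2, where 4 rose and 4 fell in the nucleus and 3 rose and 2 fell in the cytoplasm. GCLC, the catalytic subunit of the first step of glutathione synthesis, fell in HepG2 nuclei by 1.04 ± 0.12 (edgeR adjusted p = 1.75e-07), at 45.0 and 44.4 TMM CPM with siPANAD against 96.3 and 87.0 with NC. SUOX, the sulfite oxidase, rose in all 4 contrasts, by 0.59 to 1.33 on the log2 scale (edgeR adjusted p of 9.45e-09 to 5.28e-05). All 10 were tested in SNU-449, with 4 higher and 3 lower in the nucleus and 3 higher and 1 lower in the cytoplasm, and the nuclear sum of 7 was 4 with DESeq2, without NC replicate 1 or without siPANAD replicate 2.

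Of the 15 polyamine and methionine salvage genes, which spend SAM or recover methionine, more fell than rose in each of the 4 contrasts. In the HepG2 nucleus 1 rose and 9 fell, against 22.0% and 23.6% of all genes, with a median of -0.78, and in the HepG2 cytoplasm 1 rose and 8 fell, with a median of -0.37. SMOX, which oxidises spermine, was at 61.2 and 69.3 TMM CPM in the HepG2 siPANAD nucleus, against 173 and 184 TMM CPM in the NC nucleus, and fell by 1.45 ± 0.13 (edgeR adjusted p = 2.04e-09). SAT1, which acetylates polyamines, was at 300.1 and 289 TMM CPM with siPANAD there, against 981 and 934 TMM CPM with NC, and fell by 1.70 ± 0.15 (edgeR adjusted p = 2e-09). In the SNU-449 nucleus 2 of 14 tested genes rose and 8 fell, with a median of -0.38. In the SNU-449 cytoplasm 1 rose and 7 fell, with a median of -0.16, a sum of 8 that was 5 with upper quartile scaling, or without cytoplasm NC replicate 1, siPANAD replicate 1 or siPANAD replicate 2. SAT1 rose in SNU-449, by 0.44 ± 0.09 in the nucleus and by 0.47 ± 0.09 in the cytoplasm (edgeR adjusted p = 8.68e-05 and 4.53e-05). AZIN1, which frees ornithine decarboxylase from its inhibitor, fell in SNU-449 nuclei by 0.78 ± 0.09 (edgeR adjusted p = 1.77e-08), at 44.6 and 42.8 TMM CPM with siPANAD against 76.0 and 74.0 with NC.

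**Figure D5:**
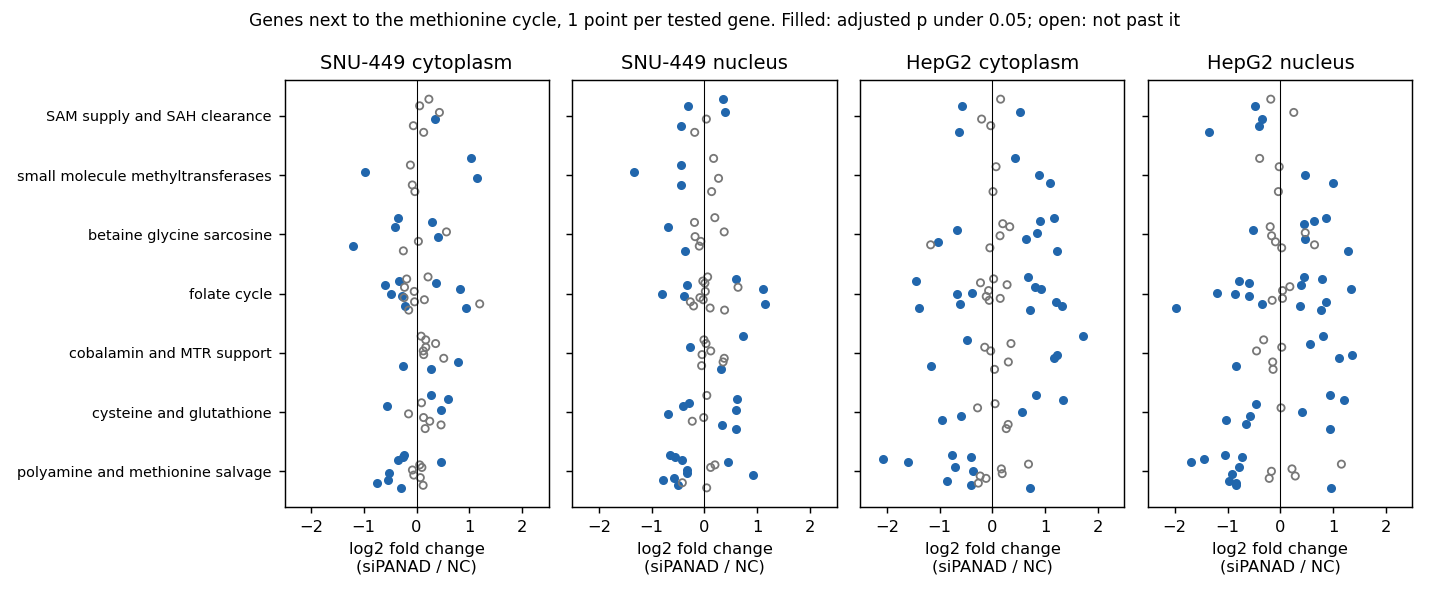
Fitted log2 fold change of siPANAD over NC for each tested gene of the 7 lists around the methionine cycle, in the 4 combinations of line and fraction. Filled points passed the edgeR threshold and open points did not. In the lowest band, polyamine and methionine salvage, 9 genes fell and 1 rose in the HepG2 nucleus.

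Levels of liver and mesenchymal cell markers differed too in most fractions, and their part in these results was not tested. The summed level of the 16 hepatocyte markers was 24700 and 25650 TMM CPM in HepG2 siPANAD nuclei, against 32980 and 32330 in NC nuclei, and 61370 and 59110 in the siPANAD cytoplasm, against 48190 and 40630 in the NC cytoplasm. Of these markers 2 rose and 8 fell in the HepG2 nucleus, where GNMT and MAT1A rose, and 5 rose and 6 fell in the HepG2 cytoplasm, where 45.6% and 47.9% of all genes passed in nucleus and cytoplasm. In SNU-449 the summed hepatocyte markers were 100.2 and 97.5 TMM CPM in siPANAD nuclei, against 295 and 240 in NC nuclei, and 42.7 and 47.9 in the siPANAD cytoplasm, against 118 and 96.8 in the NC cytoplasm. FGB, a fibrinogen chain, gave 21.8 to 207 TMM CPM in SNU-449 libraries. The 12 mesenchymal markers summed to 2751 and 2854 TMM CPM in HepG2 siPANAD nuclei, against 5883 and 6169 in NC nuclei, and to 2606 and 2569 in SNU-449 siPANAD nuclei, against 3551 and 3661 in NC nuclei. In the cytoplasm they summed to 1667 and 1690 TMM CPM with siPANAD against 3917 and 3284 with NC in HepG2, and to 2391 and 2816 against 2789 and 2593 in SNU-449, where the groups overlapped. VIM was at 0 to 0.180 and COL1A1 at 0 to 1.22 TMM CPM in the HepG2 libraries, so the HepG2 sum did not come from them. Of the 12 mesenchymal markers 4 were above 1 CPM in every HepG2 library, so that sum stands for few of them and not for the whole list. The 8 immune and blood cell markers summed to 0.809 to 3.08 TMM CPM in SNU-449 and to 66.9 to 623 TMM CPM in HepG2. Of these 8, 2 were above 1 CPM in every HepG2 library, and 0 in every SNU-449 library. PTPRC, at 0 to 0.155 throughout, was not among those 2.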

How the data were processed

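The authors deposited 1 table per cell line, holding raw read counts for versioned Ensembl identifiers. The submitters' processing notes name Trim Galore 0.6.4, HISAT2 2.2.1 and the hg38 build. The counting program, annotation release and strand setting are not given in the sources used here. Library preparation kept strand, per the labels' protocols, but with the counting setting unknown, antisense partners may have shared reads. Counts were used as deposited, and 1 broken entry with no values per table was left out. Symbols came from a gene table, positions and exonic lengths from GENCODE 29 on GRCh38, and promoter sequences from RefSeq (GRCh38.p14), which held windows for all 9 genes.

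In R 4.3.3 with edgeR 4.0.16, the 8 libraries of a line were fitted with 1 mean per group after filterByExpr (minimum count 10) and TMM scaling, which kept 17895 genes for SNU-449 and 17499 for HepG2. Contrasts were tested two-sided with glmQLFTest after a robust glmQLFit, edgeR's quasi-likelihood F-test, with Benjamini-Hochberg adjustment over all genes of a contrast. Differences between the lines came from 1 fit of all 16 libraries (20459 genes). Steps were tested on simulated data. TMM CPM are counts scaled to the effective library size, and a ratio between fractions is relative to the typical gene. A count of 0 allows up to 3 counts, which covers counting error only. Replicates differed by more than counting noise (chi-square per degree of freedom 4.09 to 29.9), so none was counted as a copy.

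The members and gene lists were chosen with earlier results of these data known. No p is given for the members in the HepG2 cytoplasm, nor for GNMT where HepG2 cytoplasm libraries enter. Contrasts that combine those libraries with others were tested for the other members, and include values of the contrast that chose the set. Genes named from a list were those with the widest fold change past the threshold, up to 2 per list and contrast, and 1 such gene is not reported here. GGCX, PEX6, SAT1 in SNU-449, and BHMT2 outside the SNU-449 cytoplasm were added after their values were seen. The alternatives were RLE and upper quartile scaling, DESeq2 1.42.0, no filter, the replicate number as a block, only the 4 libraries of a fraction, CBS and CBSL summed, and leaving out each library.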

Additional observations from a re-analysis of the deposited data

Results flagged for a closer look

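The effect of siPANAD differed between the cell lines for 4 genes in the nucleus, by a test of the difference itself in the fit of all 16 libraries (SNU-449 minus HepG2). GNMT differed by -4.06 and MAT2A by 1.53. CBS differed by 1.39 and CTH by 1.84. In the cytoplasm MAT1A differed by -0.78, MAT2A by 1.36 and CTH by 2.08, and these differences include the HepG2 cytoplasm contrast that chose the genes. For MAT2A the siPANAD minus NC effects themselves had opposite signs in the nuclei, 0.59 in SNU-449 and -0.96 in HepG2.

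The effect differed between the nucleus and the cytoplasm for 3 genes in HepG2 (nuclear minus cytoplasmic log2 fold change), BHMT by -0.93, CBS by -1.04 and AHCY by -0.72. In SNU-449 it differed for MAT2A by 0.57 and for AHCY by -0.40. Both fractions of a line enter these differences, and the HepG2 cytoplasm is the contrast that chose the genes.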

How the results depend on the processing

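No result past the threshold changed sign under any alternative run. Counts over all genes and over the 9 members past the threshold stayed within 1.5 times under RLE and upper quartile scaling, DESeq2, no filter, the replicate block, fits of 4 libraries a fraction and CBS summed with CBSL, except that 1 member, not 2, passed in the SNU-449 cytoplasm with DESeq2. Counts on the gene lists that moved further are given beside them in the text above. The planned sum of GNMT with the read-through CNPY3-GNMT was not run, because no entry of that name was found in the tables. Leaving out 1 library at a time gave 841 genes (without nucleus siPANAD replicate 2) to 2346 genes for the HepG2 shift of the ratio, against 1730 with all, and 0 members (without cytoplasm siPANAD replicate 2 or nucleus NC replicate 2) to 3. The HepG2 shift had 1010 and 1077 genes without cytoplasm siPANAD replicate 1 and 2, and 1057 without nucleus siPANAD replicate 1. For the SNU-449 shift the range was 2392 genes (without nucleus siPANAD replicate 2) to 3650, against 3614, and 1 to 2 members. The SNU-449 cytoplasm had 1 to 2 members. The replicate numbers were shared by the groups, and correlations of the replicate deviations between groups ran from -0.125 to 0.0845. Such low values cannot tell whether the libraries were paired, since noise of single libraries can hide a shared culture. With the replicate block 8193 genes passed in the HepG2 cytoplasm and 7684 in the nucleus, and 6988 and 8073 in SNU-449, with 1569 and 3525 in the HepG2 and SNU-449 shifts. BHMT in the HepG2 shift then missed the threshold (edgeR adjusted p = 0.0571), as did AHCYL2 in the SNU-449 nucleus (0.0521), and CBS passed between the lines in the NC cytoplasm (-0.57). Upper quartile scaling moved the median log2 fold change of all genes to 0.107 in the HepG2 cytoplasm, against -0.0039 with TMM, and the nucleus to cytoplasm median with NC to 0.428 in SNU-449, against 0.219, and to 0.294 in HepG2, against 0.0441. With no filter 68.2% of the genes past the threshold in the HepG2 shift were higher, against 49.7% with it. The log2 fold change of GNMT in HepG2 nuclei lay between 3.599 and 4.106 when 1 library was left out. In SNU-449, 7 to 33 counts of GNMT and 0 to 54 of BHMT a library limit what could be detected, and the cause of each lost call was not tested.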
